A study of Danio rerio with 20 samples.

Results

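A set of 8 genes was followed in the zebrafish liver whose transcript levels moved one way after swimming in young fish and the other way in old fish. They were chosen by their measured exercise effects at both ages and the interaction of age and exercise in these same libraries, so the exercise values below describe that choice and are given without a test. The 8 names matched 9 gene identifiers among 32105 in the count table, because the name acbd3 is carried by ACBD3 ENSDARG00000024602 and acbd3 ENSDARG00000042623. The second of that pair had exercise effects smaller than their SE and is reported beside the first. All 9 genes passed the filter on low counts, which left 18079 genes for testing, and the lowest count of any of them in any library was 74.

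The libraries came from livers of male Danio rerio of strain AB JxTu in 4 groups of 5. The resting groups, with the perturbation given as none, were aged 1 year and 3 years, and the exercised groups, which swam in a swim tunnel, were aged 1 year and 3 years. No group carried an engineered allele or a drug in the labels, which also give neither the length of the swim nor the hour of sampling. They do not say whether each library came from a separate fish, so the p-values reflect a spread among samples that could be technical. In bulk liver, fewer cells of a type and less RNA per cell cannot be told apart.

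The genes act in separate parts of the cell. RHBDF1 (iRhom1) is an inactive relative of the rhomboid proteases that helps the shedding protease ADAM17 mature and reach the surface, where it releases growth factors and TNF. MYO18A is an unconventional myosin that, in mammalian cells, links the phosphoinositide-binding protein GOLPH3 to actin at the Golgi, and ACBD3 is a Golgi protein that recruits a phosphatidylinositol 4-kinase to the same membranes. RREB1 is a zinc-finger transcription factor downstream of Ras, and SYNE1 (nesprin-1) ties the nuclear envelope to the cytoskeleton. Fbxw11a belongs to the beta-TrCP family, the substrate receptors of an SCF ubiquitin ligase that marks proteins such as beta-catenin, I-kappa-B and the period clock proteins for degradation. SLC49A4, known earlier as DIRC2, is a transporter of the lysosomal membrane, and rims2b encodes a scaffold of the presynaptic active zone that also serves regulated secretion in endocrine cells.

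Total counts ranged from 33046127 to 49579666 per library. The summed level of 18 hepatocyte markers was between 121260 and 289850 plain CPM in every library, plain CPM being counts scaled to a common total. All marker sums are in plain CPM. The hepatocyte sum had medians of 231420 and 226410 CPM at 1 year and 249880 and 175450 CPM at 3 years, resting before exercised. In the exercised 3-year group replicates 1, 2 and 5 held 121260, 175450 and 133060 CPM, and replicates 3 and 4 held 232590 and 273370 CPM. CPM of single genes, unless called plain, are scaled with TMM factors as well. FABP2, the fatty acid binding protein of the intestine, exceeded 100 plain CPM in 7 libraries, called libraries with intestinal reads below. They were resting 1-year replicate 5, exercised 1-year replicates 3 and 4, resting 3-year replicate 3 and exercised 3-year replicates 1, 2 and 5. The summed level of 14 intestine markers had a median of 14571 CPM in the exercised 3-year group and of 29.4 to 45.8 CPM in the other 3 groups. Its highest value was 28116 CPM at rest and 20109 CPM after exercise at 1 year, and 5225 and 22878 CPM at 3 years. Within that list the 2 LCT genes, lactase, were at 0 in 12 and 8 libraries, and FABP2 was above 0 in all. Markers of the exocrine pancreas, 13 genes, were present in every group, with summed levels from 11.2 to 113790 CPM. Of 18 myeloid markers tested, 9 were called higher with age on average, beside 5.4% of all genes. After exercise at 1 year 2 were called lower, beside 2.85% of all genes called in either direction. The median log2 fold change of the myeloid markers after exercise was -0.60 at 1 year and 0.65 at 3 years. Their interaction was above 0 in 18 of 18, with a median of 1.27, against 0.07 over all genes tested. None of them was called for the interaction or for exercise at 3 years. The markers share their libraries, so their signs are not independent of one another. Of 18 skeletal muscle markers tested none was called in these contrasts, and their medians were -1.12 and 1.53, with an interaction above 0 in 16 and a median of 2.26. The medians of both lists thus had the signs of the 5 genes that were lower at 1 year and higher at 3 years. So did those of the intestine markers (-0.28 and 2.91) and of the endocrine pancreas and enteroendocrine markers (-0.43 and 0.65). Over all genes tested the medians were -0.04 and 0.04, which are of the same signs. The medians of the hepatocyte, exocrine pancreas, erythrocyte and stellate, endothelial and biliary markers were negative at both ages. Those of the neuron and glia markers were 0.11 and -0.02. Some of these medians rest on few libraries. The summed muscle markers had medians of 28.2 and 16.1 CPM at 1 year and 12.9 and 83.0 CPM at 3 years, resting before exercised. Single libraries reached 245 CPM (resting 1-year replicate 2), 276 CPM (resting 3-year replicate 1) and 522 and 254 CPM (exercised 3-year replicates 4 and 5). Exercised 3-year replicates 1, 2 and 3 held 83.0, 57.4 and 20.05 CPM, and resting 3-year replicates 2 to 5 held 7.68, 38.8, 12.9 and 11.0 CPM. The summed endocrine markers had medians of 22.1 and 20.5 CPM at 3 years. They reached 2034 CPM in resting replicate 5 and 3376 and 1540 CPM in exercised replicates 1 and 5. The log2 fold changes of the 8 genes without the 7 libraries are given below. With the means of the intestine and pancreas markers as covariates, the interactions of the 8 genes ranged in size from 1.42 for SLC49A4 to 3.67 for rims2b. Their signs were kept, which is a description, since the interaction in these libraries chose the genes. The log2 fold change at 3 years was 0.49 for MYO18A and 0.75 for SYNE1 with the covariates. Without the 7 libraries it was -0.06 and 0.32. The part of myeloid, muscle and endocrine markers in the values was not tested.

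RHBDF1, MYO18A, RREB1, ACBD3 and SYNE1 were lower after swimming at 1 year and higher after swimming at 3 years. RHBDF1 ENSDARG00000036541 was at 10.9, 14.4, 8.87, 9.99 and 10.2 CPM in the resting 1-year libraries, in the order of replicates 1 to 5, and at 2.76, 3.58, 2.75, 3.59 and 3.41 CPM in the exercised ones. Every exercised library lay below every resting one, and the exercised values were tightly packed. At 3 years the resting libraries held 4.06, 6.83, 6.64, 9.83 and 5.37 CPM and the exercised libraries 10.5, 9.18, 10.5, 9.11 and 15.6 CPM. The exercised libraries were mostly higher, but resting replicate 4 lay inside their range. The group means were 10.9 ± 2.10 and 3.22 ± 0.43 CPM at 1 year, and 6.55 ± 2.15 and 11.0 ± 2.69 CPM at 3 years, in each pair resting before exercised (SD, n = 5 in every group from here on). The log2 fold change after exercise was -1.75 ± 0.22 (SE) at 1 year and 0.75 ± 0.21 at 3 years.

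**Figure D1:**
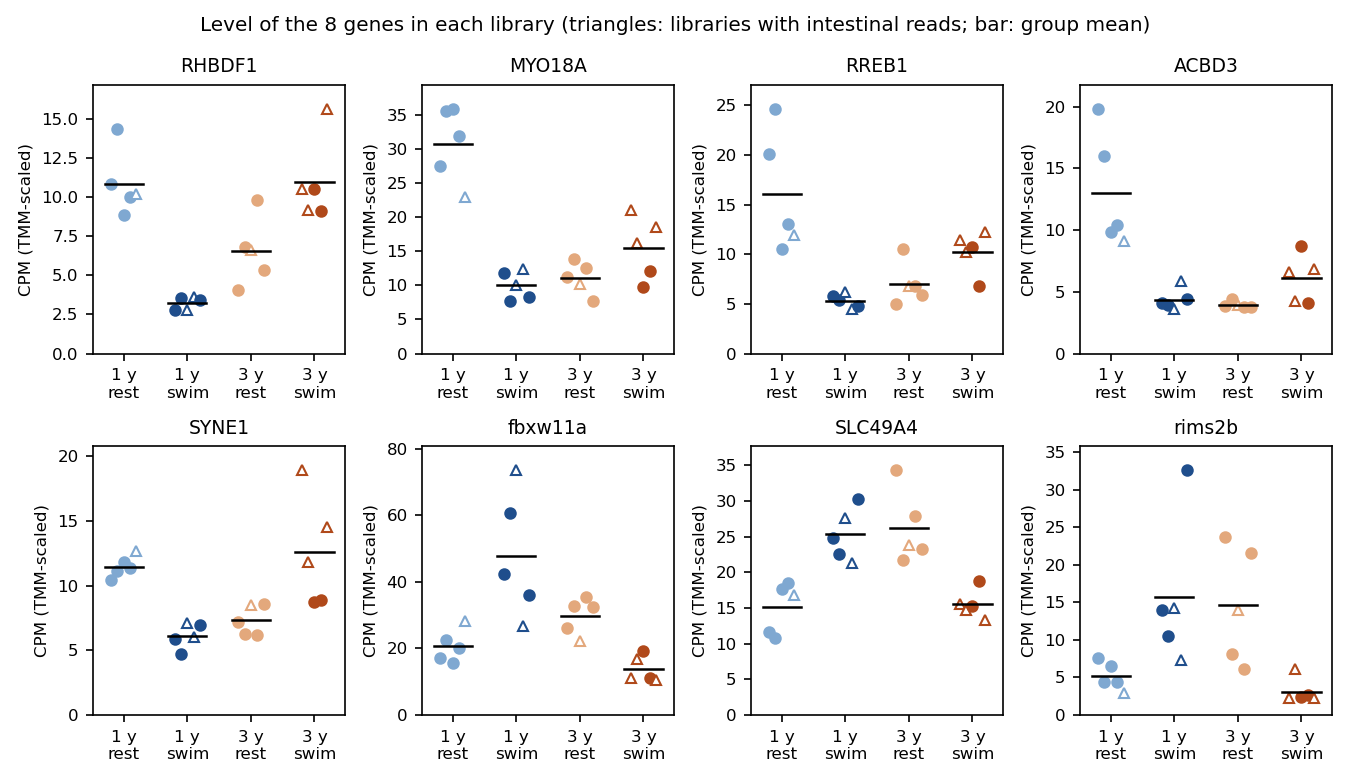
Transcript level (CPM, TMM-scaled, linear axes starting at 0) of the 8 genes in each of the 20 libraries, by age and exercise. Each point is 1 library, open triangles are the 7 libraries with intestinal reads, and the bar is the group mean. In the first 5 panels the exercised libraries lie below all resting ones at 1 year, and in the panels of fbxw11a, SLC49A4 and rims2b they lie below all resting ones at 3 years.

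MYO18A ENSDARG00000075752 had the highest resting level of these 5 genes in the young fish, at 27.6, 35.7, 35.9, 31.9 and 23.0 CPM. After the swim the 1-year libraries held 11.8, 7.65, 10.1, 12.4 and 8.24 CPM. No exercised library reached the lowest resting one, and the mean went from 30.8 ± 5.55 to 10.03 ± 2.09 CPM. In the old fish the resting libraries were at 11.3, 13.9, 10.2, 12.6 and 7.69 CPM and the exercised libraries at 21.1, 16.2, 9.73, 12.2 and 18.6 CPM. The exercised libraries above the resting range were replicates 1, 2 and 5, which are the exercised 3-year libraries with intestinal reads, and the other 2 lay within it. The log2 fold change was -1.62 ± 0.22 at 1 year and 0.48 ± 0.21 at 3 years. Without the 7 libraries it was -1.79 at 1 year and -0.06 at 3 years, so the higher level after exercise in the old fish was not seen in the remaining libraries, of which 2 were exercised at that age.

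ACBD3 ENSDARG00000024602 stood at 19.8, 16.0, 9.84, 10.4 and 9.08 CPM in the resting 1-year libraries and at 4.08, 3.91, 3.64, 5.84 and 4.38 CPM in the exercised ones. All exercised values were below all resting ones, and resting replicates 1 and 2 were the highest. The resting 3-year libraries were nearly uniform, at 3.86, 4.43, 3.95, 3.79 and 3.74 CPM. The exercised 3-year libraries were spread more widely, at 6.64, 4.26, 8.69, 4.07 and 6.85 CPM, with replicates 2 and 4 inside the resting range. The means were 13.0 ± 4.67 and 4.37 ± 0.86 CPM at 1 year and 3.95 ± 0.28 and 6.10 ± 1.94 CPM at 3 years, with log2 fold changes of -1.57 ± 0.24 and 0.62 ± 0.23. The namesake acbd3 ENSDARG00000042623 had means of 10.4 ± 3.38, 9.39 ± 2.18, 11.4 ± 2.97 and 11.8 ± 1.86 CPM in the resting and exercised 1-year and the resting and exercised 3-year libraries. Its ranges overlapped at both ages, and its log2 fold changes were -0.15 ± 0.23 and 0.05 ± 0.23.

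RREB1 ENSDARG00000063701 followed the course of ACBD3 in the young fish. Its resting 1-year libraries were at 20.1, 24.6, 10.6, 13.1 and 11.95 CPM, with replicates 1 and 2 again the highest, and its exercised 1-year libraries were at 5.82, 5.38, 6.15, 4.45 and 4.83 CPM. The exercised libraries lay wholly below the resting ones. At 3 years, 4.99, 10.6, 6.82, 6.84 and 5.89 CPM at rest stood against 11.4, 10.2, 10.7, 6.78 and 12.2 CPM after exercise. Resting replicate 2 and exercised replicate 4 crossed, so the ranges overlapped. The mean went from 16.1 ± 6.03 to 5.33 ± 0.70 CPM at 1 year and from 7.02 ± 2.12 to 10.3 ± 2.10 CPM at 3 years, log2 fold changes of -1.59 ± 0.24 and 0.55 ± 0.24.

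SYNE1 had the tightest resting values of the 5 at 1 year, at 10.4, 11.1, 11.8, 11.3 and 12.6 CPM, and the exercised libraries held 5.85, 4.69, 7.10, 6.04 and 6.98 CPM. It was also the only gene of the 5 whose ranges were apart at 3 years, where 7.20, 6.25, 8.53, 6.18 and 8.61 CPM at rest stood below 18.9, 11.8, 8.75, 8.90 and 14.5 CPM after exercise. The 3 higher exercised values belonged to the libraries with intestinal reads, and the other 2 exceeded the highest resting library narrowly. The means were 11.5 ± 0.83 and 6.13 ± 0.98 CPM at 1 year and 7.35 ± 1.18 and 12.6 ± 4.25 CPM at 3 years. The log2 fold changes were -0.90 ± 0.19 and 0.77 ± 0.19, and without the 7 libraries -0.90 and 0.32.

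Fbxw11a, SLC49A4 and rims2b ran the other way, higher after swimming at 1 year and lower at 3 years. In the resting 1-year libraries fbxw11a was at 17.2, 22.5, 15.6, 20.0 and 28.2 CPM, and in the exercised ones at 42.5, 60.6, 73.5, 26.8 and 36.1 CPM. Exercised replicate 4 lay below resting replicate 5, and both are libraries with intestinal reads. The resting 3-year libraries held 26.3, 32.6, 22.1, 35.5 and 32.4 CPM, all above the exercised ones at 11.1, 16.8, 19.4, 11.2 and 10.4 CPM. Mean levels were 20.7 ± 4.98 and 47.9 ± 18.9 CPM at 1 year and 29.8 ± 5.45 and 13.8 ± 4.04 CPM at 3 years, with log2 fold changes of 1.21 ± 0.26 and -1.11 ± 0.26.

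SLC49A4 had ranges that were apart at both ages, as SYNE1 had in the other direction. Resting 1-year libraries were at 11.7, 10.8, 17.7, 18.5 and 16.8 CPM and exercised ones at 24.9, 22.5, 27.7, 21.3 and 30.3 CPM. At 3 years the resting libraries were at 34.3, 21.8, 23.8, 27.8 and 23.3 CPM and the exercised at 15.6, 14.8, 15.3, 18.8 and 13.4 CPM. The resting 3-year and exercised 1-year libraries covered about the same levels, as did the exercised 3-year and resting 1-year libraries. The means were 15.1 ± 3.59 and 25.3 ± 3.71 CPM at 1 year and 26.2 ± 5.05 and 15.6 ± 1.99 CPM at 3 years, and the log2 fold changes, 0.75 ± 0.17 and -0.75 ± 0.17, were equal in size.

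Rims2b had the largest interaction of the 8 in size and, on the log2 scale, the widest spread within groups. It was at 7.55, 4.40, 6.57, 4.33 and 2.90 CPM in the resting and at 13.9, 10.5, 14.3, 7.33 and 32.6 CPM in the exercised 1-year libraries. Exercised replicate 5 stood far above the others, and replicate 4 fell below resting replicate 1. The resting 3-year libraries held 23.7, 8.18, 13.9, 6.14 and 21.6 CPM, and the exercised ones 2.23, 6.08, 2.34, 2.61 and 2.30 CPM. All exercised values were lower, though exercised replicate 2 came close to resting replicate 4. The means were 5.15 ± 1.88 and 15.7 ± 9.84 CPM at 1 year and 14.7 ± 7.82 and 3.11 ± 1.67 CPM at 3 years, with log2 fold changes of 1.61 ± 0.45 and -2.24 ± 0.46.

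The interaction, the log2 fold change after exercise at 3 years minus that at 1 year, was 2.50 for RHBDF1, 2.20 for ACBD3, 2.14 for RREB1, 2.10 for MYO18A and 1.68 for SYNE1. It was -1.50 for SLC49A4, -2.32 for fbxw11a and -3.85 for rims2b, and 0.20 for acbd3 ENSDARG00000042623. Among the genes tested, 177 (0.979%) were called for this contrast at an adjusted p under 0.05 (edgeR's quasi-likelihood test, Benjamini-Hochberg adjustment). Of those, 93 (0.514% of genes tested) were lower at 1 year and higher at 3 years, and 76 (0.42%) the reverse. The called genes for exercise were 515 (2.85%) at 1 year and 0 (0%) at 3 years, where 2952 genes had an unadjusted p under 0.05 in edgeR and DESeq2 called 617 genes. The 8 genes' own calls in these contrasts are not given, since the contrasts chose them. Effects of opposite sign, of any size, were present in 9022 genes (49.9%).

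At 1 year the ranges were apart for 6 of the 9 identifiers, 5 lower and 1 higher, and over all genes tested 417 (2.31%) were wholly lower and 546 (3.02%) wholly higher. At 3 years they were apart for 4, with SYNE1 wholly higher and fbxw11a, SLC49A4 and rims2b wholly lower, and over all genes 241 (1.33%) were wholly higher and 259 (1.43%) wholly lower. Without the 7 libraries, 5 identifiers were wholly lower and 3 wholly higher at 1 year, with fbxw11a and rims2b now among the latter. At 3 years 3 were wholly lower and 1 wholly higher. The groups are then smaller, and the shares over all genes were not computed for them. These counts come from the contrasts that chose the genes and are not evidence for the pattern. Without the 7 libraries with intestinal reads, the log2 fold changes of RHBDF1 were -1.73 and 0.59, of RREB1 -1.64 and 0.30, of ACBD3 -1.73 and 0.68, of fbxw11a 1.33 and -1.06, of SLC49A4 0.86 and -0.66, and of rims2b 1.77 and -2.60, each at 1 year and then at 3 years.

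**Figure D2:**
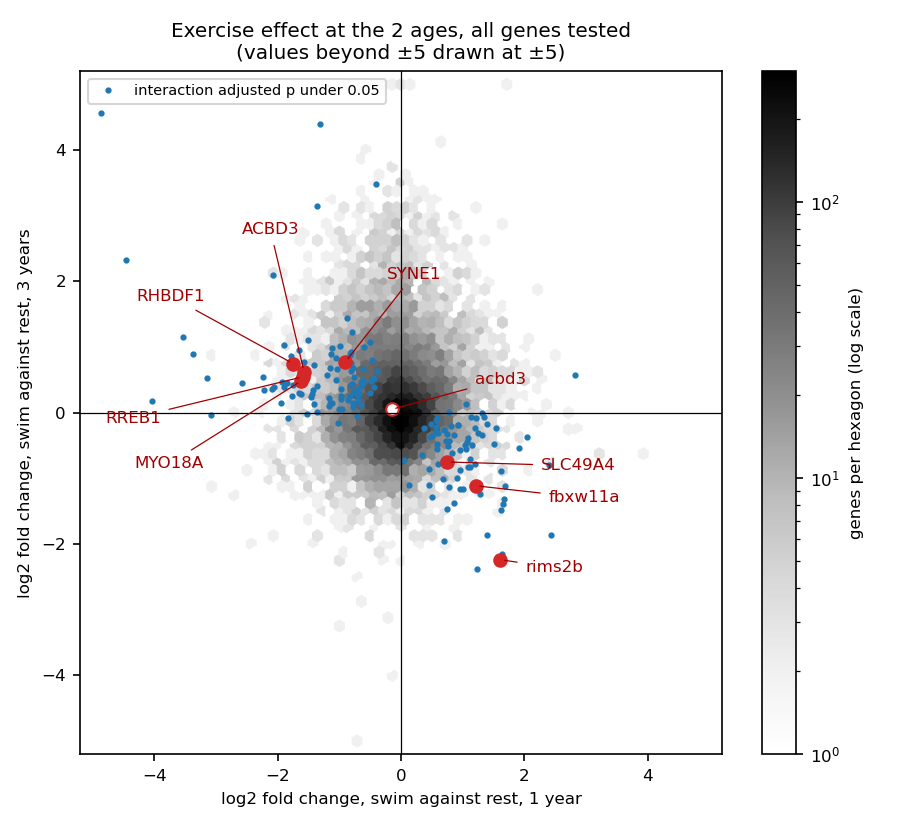
Log2 fold change after exercise at 1 year (horizontal) against that at 3 years (vertical) for the 18079 genes tested, as grey hexagons shaded by the number of genes on a log scale. Blue points are the 177 genes called for the interaction, filled red points the 8 genes and the open point acbd3 ENSDARG00000042623. RHBDF1, MYO18A, RREB1, ACBD3 and SYNE1 lie at the upper left and fbxw11a, SLC49A4 and rims2b at the lower right.

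The order of the 4 group levels differed among the genes. For MYO18A and ACBD3 the resting 1-year group stood alone at the top, with no overlap with the next group, and the other 3 groups followed one another by less than the larger SD of the neighbours. RHBDF1 and SYNE1 had a pair of high groups, exercised 3-year and resting 1-year, whose means differed by 0.14 and 1.12 CPM, within the SD, and exercised 1-year was lowest. RREB1 resting 1-year and exercised 3-year means also differed by less than the SD. For SLC49A4 the levels formed 2 pairs, resting 3-year with exercised 1-year above and exercised 3-year with resting 1-year below, and only the step between the pairs, 9.76 CPM, exceeded the SD and was free of overlap. Fbxw11a and rims2b ran from exercised 1-year through resting 3-year and resting 1-year to exercised 3-year, and the top 2 groups of each were within the SD of one another.

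Read as age differences, the same 4 means gave opposite signs at rest and after exercise. At rest the log2 fold change of 3 years against 1 year was -1.72 for ACBD3, -1.47 for MYO18A, -1.19 for RREB1, -0.73 for RHBDF1 and -0.64 for SYNE1, and it was 0.53 for fbxw11a, 0.80 for SLC49A4 and 1.51 for rims2b. After exercise it was 0.48, 0.63, 0.95, 1.77 and 1.04 for the first 5 in the same order and -1.80, -0.70 and -2.34 for the last 3. These contrasts share their libraries with the interaction, so no p-value is given for them.

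The average age effect, the mean of the age differences at rest and after exercise, is orthogonal to the interaction in this balanced design and was tested. Over all genes tested, 2233 (12.4%) were called for it, 977 higher and 1256 lower at 3 years, and 3 of the 9 identifiers were called. On this average ACBD3 ENSDARG00000024602 fell by 0.62 ± 0.17 (SE) on the log2 scale (adjusted p = 0.0205, edgeR), and fbxw11a fell by 0.64 ± 0.18 (adjusted p = 0.0286). RHBDF1 rose on average by 0.52 ± 0.15 (adjusted p = 0.0277). Each of the 3 averages combines age differences of opposite sign at rest and after exercise. MYO18A had a log2 fold change of -0.42 ± 0.15 and did not pass (adjusted p = 0.0800), and the values were -0.12 for RREB1, 0.20 for SYNE1, 0.05 for SLC49A4, -0.41 for rims2b and 0.23 for acbd3 ENSDARG00000042623, with adjusted p from 0.373 to 0.862.

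Because the genes were chosen partly for a low spread in the same fit, their chance of a call is not that of any gene. With libraries left out the groups are unequal, and the average age effect is no longer orthogonal to the interaction. The values below from such fits are therefore descriptions of how the calls depend on the libraries. Without the 7 libraries none of the 3 calls held (ACBD3 -0.65, adjusted p = 0.0918; fbxw11a -0.47, adjusted p = 0.114; RHBDF1 0.36, adjusted p = 0.293, edgeR), MYO18A was called (-0.69, adjusted p = 0.0340), and SYNE1 changed sign to -0.08. RHBDF1 also lost its call when exercised 3-year replicate 5, its highest library of that group, was left out (0.41, adjusted p = 0.0696, edgeR), and with any of resting 1-year replicate 4 and exercised 1-year replicates 1 and 3 removed (0.49 to 0.51). Fbxw11a lost its call without exercised 1-year replicate 3 (-0.53, adjusted p = 0.0612), and with any of resting 1-year replicate 2, resting 3-year replicate 3 and exercised 3-year replicates 1 and 4 removed (-0.62 to -0.59). MYO18A was called with any of resting 1-year replicate 5, exercised 1-year replicate 2 and exercised 3-year replicate 1 removed (-0.50 to -0.48).

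**Figure D3:**
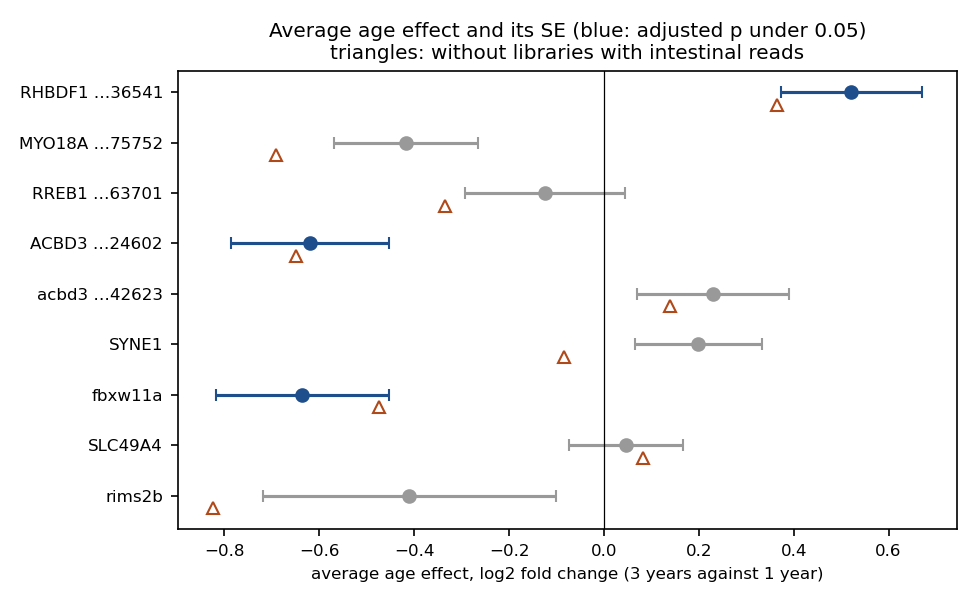
Average age effect (log2 fold change, 3 years against 1 year) of the 9 gene identifiers, with the SE as bars. Blue marks an adjusted p under 0.05 in all 20 libraries, and open triangles are the values in the 13 libraries without intestinal reads. RHBDF1 lies to the right and ACBD3 and fbxw11a to the left of 0, and the triangle of SYNE1 crosses 0.

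Zebrafish often keep 2 copies of a gene after the genome duplication of teleost fishes, and besides the ACBD3 pair 6 of the 8 genes had a second gene of the same root symbol. None of these 6 was called for the interaction, beside 0.979% of all genes. The 8 genes were chosen by their interaction and the namesakes were not, so a smaller value in the namesake is no evidence of divergence. MYO18A ENSDARG00000061862 was present at 28.2 ± 7.44 and 19.5 ± 5.15 CPM at 1 year and at 25.7 ± 9.59 and 25.9 ± 2.67 CPM at 3 years, resting before exercised, with an interaction of 0.54 ± 0.32 (adjusted p = 0.439, edgeR). RREB1 ENSDARG00000042652 exceeded its partner in every group mean, at 22.2 ± 4.90, 16.1 ± 3.43, 31.1 ± 6.03 and 32.2 ± 9.26 CPM, with an interaction of 0.51 ± 0.31 (adjusted p = 0.442). It rose with age on average by 0.74 ± 0.16 on the log2 scale (adjusted p = 0.00501), in contrast to the value of -0.12 for its partner.

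FBXW11 ENSDARG00000017230 was at 24.6 ± 6.26, 28.1 ± 9.08, 28.3 ± 7.14 and 37.9 ± 10.4 CPM in the same order of groups, with an interaction of 0.23 ± 0.34 (adjusted p = 0.753, edgeR), against -2.32 for fbxw11a. Syne1b ENSDARG00000063068 was at 2.48 to 3.78 CPM, with an interaction of 0.51 ± 0.49, and rims2a ENSDARG00000101606 at 0.74 to 2.25 CPM, with 0.88 ± 1.04. RHBDF1 ENSDARG00000017367 was at 0.19 to 0.40 CPM, so its group differences rest on few reads. The difference in interaction between the genes of a pair was not tested, and the counting of reads that fit both copies is not given in the sources.

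**Figure D4:**
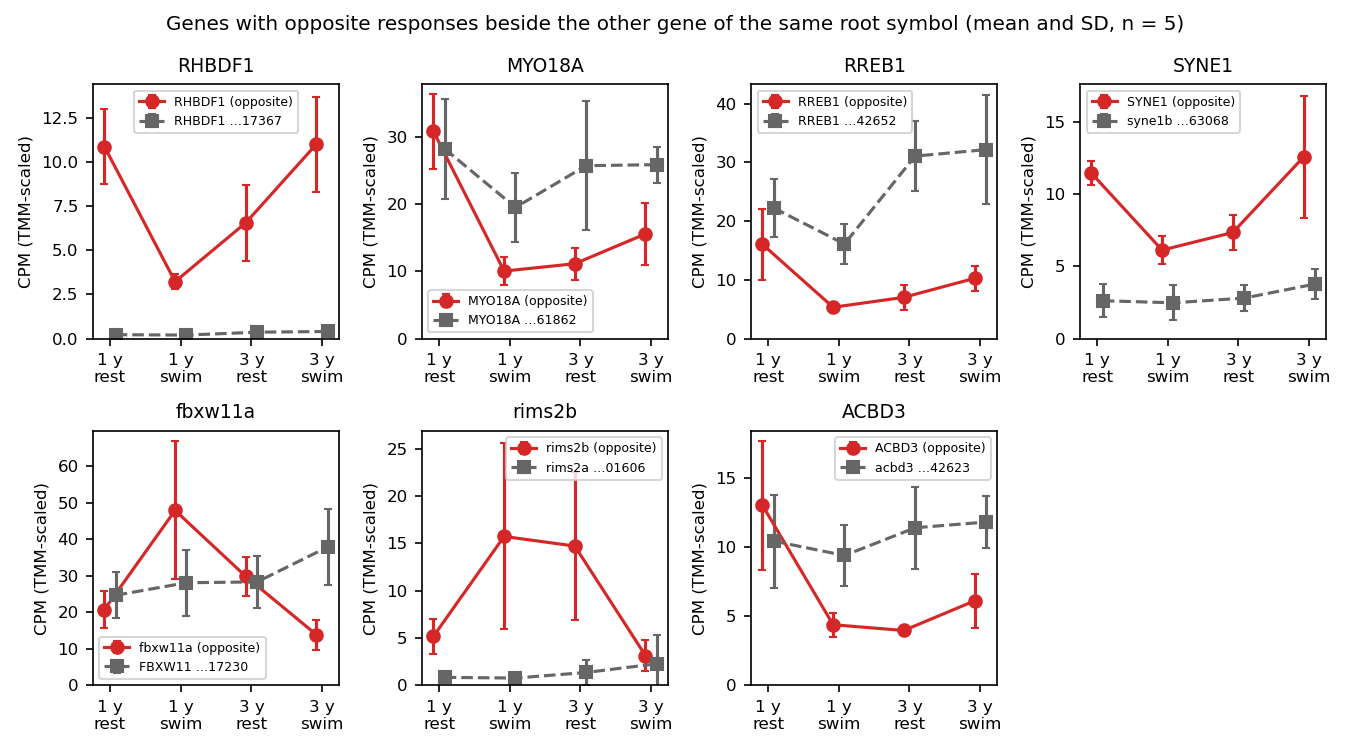
Mean transcript level (CPM, TMM-scaled, linear axes from 0) by group for 7 of the 8 genes (red circles) and for the other gene of the same root symbol (grey squares), with the SD as bars (n = 5). The red lines of MYO18A and fbxw11a depart from grey lines that start at a similar height, the grey RREB1 gene lies higher than the red one in every group mean, and the grey genes beside RHBDF1, SYNE1 and rims2b lie lower in every group mean.

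Genes known to work with the 8 were taken from 7 lists, and 1 of the 156 genes tested in them (the 8 themselves left out) was called for the interaction, beside 0.979% of all genes. This was GOLPH3 ENSDARG00000052851, the Golgi protein that binds MYO18A in mammalian cells. It was at 31.9, 28.8, 31.1, 33.5 and 26.4 CPM in the resting and at 43.0, 51.6, 45.9, 41.0 and 44.4 CPM in the exercised 1-year libraries. At 3 years it was at 33.9, 36.2, 27.7, 32.5 and 34.2 CPM at rest and at 25.4, 26.7, 29.95, 29.5 and 30.3 CPM after exercise. The exercised libraries were wholly higher at 1 year, and the ranges overlapped at 3 years. Its log2 fold change was 0.57 ± 0.11 at 1 year (adjusted p = 0.00713, edgeR) and -0.21 at 3 years (adjusted p = 0.318), and the interaction was -0.79 ± 0.15 (adjusted p = 0.0183), opposite in sign to that of MYO18A and ACBD3. The interaction call did not hold without the 7 libraries (-0.81, adjusted p = 0.144) or without exercised 1-year replicate 2 (-0.75, adjusted p = 0.0547), nor in edgeR without scaling beyond the total (-0.53, adjusted p = 0.344). It was also lost on deposited and rescaled RPKM with limma-trend, where the value was -0.53 to -0.40, and the call at 1 year was lost on deposited RPKM (adjusted p = 0.348 and 0.332).

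The Golgi list, genes of phosphatidylinositol 4-phosphate, GOLPH3 and Golgi structure, had 24 tested genes. For the average age effect 10 were called lower and 1 higher, beside 6.95% and 5.4% of all genes, and the list's median log2 fold change was -0.29 against 0.04 over all genes tested. GBF1, which activates Arf GTPases at the Golgi, fell by 0.65 ± 0.10 (adjusted p = 0.000922, edgeR), GOLGA2, a tethering protein of the cis-Golgi, by 0.61 ± 0.11 (adjusted p = 0.00186), and PITPNB, a phosphatidylinositol transfer protein, by 0.78 ± 0.15 (adjusted p = 0.00309). The average age effects of ACBD3 (-0.62) and MYO18A (-0.42) were of the same sign, though for both the age difference was negative at rest and positive after exercise. The value for acbd3 ENSDARG00000042623 was 0.23. GBF1, GOLGA2 and PITPNB remained called without the 7 libraries, at -0.71, -0.64 and -0.87. GBF1 was not called in edgeR without scaling (-0.57, adjusted p = 0.0571) or on rescaled RPKM (-0.53 and -0.34).

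In the list of the iRhom and ADAM17 pathway, 2 of 19 genes were called higher and 0 lower with age, a share near the 12.4% called over all genes. They were tnfrsf1a, a TNF receptor that ADAM17 sheds, with a log2 fold change of 0.79 ± 0.24 (adjusted p = 0.0381, edgeR), and adam10a, a related sheddase, with 0.30 ± 0.10 (adjusted p = 0.0446). Btc, the growth factor betacellulin, was the 1 gene called after exercise at 1 year, beside 2.85% of all genes. It fell by 0.90 ± 0.21 (adjusted p = 0.0237, edgeR). Of 16 genes of the nesprin and LINC complex list 2 were called with age, near the 12.4% over all genes. LMNA, a lamin of the nuclear envelope, rose by 1.69 ± 0.30 (adjusted p = 0.00186, edgeR) and syne3, another nesprin, by 0.52 ± 0.15 (adjusted p = 0.0315). Among 26 genes of the RREB1 and Ras-ERK list, the RREB1 gene ENSDARG00000042652 described above was the 1 called, a smaller share than that over all genes. Without the 7 libraries adam10a (0.34), syne3 (0.50) and btc (-0.90) were no longer called. The call of tnfrsf1a held in 13 of 32 alternatives, of syne3 in 18 and of adam10a in 10, and that of btc in 19 of 31.

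Among 25 genes around SCF beta-TrCP, 2 were called lower and 2 higher with age, beside 12.4% of all genes called. Both PER1 genes, period proteins that beta-TrCP targets, fell, ENSDARG00000056885 by 2.64 ± 0.42 (adjusted p = 0.000717, edgeR) and ENSDARG00000012499 by 1.07 ± 0.24 (adjusted p = 0.00688). Nfkbiaa, an I-kappa-B inhibitor that is another of its targets, rose by 1.27 ± 0.35 (adjusted p = 0.0230). FBXW7, the receptor of a related SCF ligase, fell after exercise at 1 year by 0.84 ± 0.20 (adjusted p = 0.0261), where fbxw11a was higher, and was not called without the 7 libraries (-0.90). The FBXW7 call held in 20 of 32 alternatives and was lost without scaling and on RPKM.

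For the 16 genes of the lysosomal transporter list, 2 were called higher and 2 lower with age, beside 5.4% and 6.95% of all genes. SLC15A4, a lysosomal histidine and peptide transporter, rose with age by 0.84 ± 0.18 (adjusted p = 0.00594, edgeR) and after exercise at 1 year by 1.15 ± 0.26 (adjusted p = 0.0213), from 0.739 ± 0.36 to 1.65 ± 0.24 CPM. Its call at 1 year held in 22 of 31 alternatives and its call for age in 28. Slc17a5, the sialic acid exporter, fell with age by 0.58 ± 0.15 (adjusted p = 0.0199) and SLC29A3, a nucleoside transporter, by 0.80 ± 0.22 (adjusted p = 0.0225), and neither was called without the 7 libraries (-0.58 and -0.75). The active zone list had 1 gene called higher and 1 lower of 30, a smaller share than the 12.4% over all genes. RIMS1, of the same family as rims2b, fell with age by 0.83 ± 0.23 (adjusted p = 0.0255, edgeR), a call that held in 23 of 32 alternatives. SYT7 ENSDARG00000078060, a calcium sensor of exocytosis, had a log2 fold change of 3.33 ± 0.81 (adjusted p = 0.0120, edgeR). It rested on exercised 3-year replicates 1 and 5, at 25.4 and 10.1 CPM, beside at most 0.545 CPM in all other libraries. Both of those are libraries with intestinal reads and had summed endocrine markers of 3376 and 1540 CPM. Other libraries high in such markers had little SYT7. It was at 0.204 and 0.22 CPM in resting 1-year replicate 5 and exercised 1-year replicate 4, which have intestinal reads. In resting 3-year replicate 5, with endocrine markers at 2034 CPM, it was at 0.173 CPM.

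Genes whose levels followed the 8 in the same direction were ranked by Pearson's r, over the 20 libraries, between their log2 CPM and the mean z score of the 8 genes, each signed by its own interaction and acbd3 ENSDARG00000042623 left out. The r includes the group differences that chose the genes, and the libraries share their depth and their intestinal reads, so it is a description. The highest values were those of MARK3 (0.90), CCDC22 (0.88), oxsr1b (0.88), PDCD6 (0.86), dnajc3b (0.83), LASP1 (0.81), ERP44 (0.80) and GSK3B (0.80). Between residuals from the group means, r was 0.72 for MARK3, 0.68 for CCDC22, 0.79 for oxsr1b and 0.59 for PDCD6. It was 0.53 for dnajc3b, 0.38 for LASP1, 0.56 for ERP44 and 0.83 for GSK3B. MARK3, a microtubule-affinity regulating kinase, had means of 14.4 ± 1.28 and 8.98 ± 1.12 CPM at 1 year and 10.8 ± 1.05 and 13.4 ± 2.79 CPM at 3 years, resting before exercised. GSK3B, the glycogen synthase kinase that phosphorylates beta-catenin, went from 40.6 ± 14.6 to 18.2 ± 8.59 CPM at 1 year and from 13.8 ± 3.33 to 22.2 ± 6.23 CPM at 3 years. All 8 were lower after exercise at 1 year, by log2 fold changes of -0.44 to -1.90, and higher at 3 years, by 0.27 to 0.69. The ranking itself favours these signs. Correlations of the opposite sign were of similar size, with INPP5K (-0.87), uros (-0.87) and KANSL3 (-0.86) the strongest, which the rule for names did not cover and which were added after their values were seen.

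On a scale that accounts for gene length, the mean level of the 8 genes lay between the percentiles 46.2 (SYNE1) and 89.3 (fbxw11a) of all genes detected. Over the 20 libraries their mean RPKM, the deposited values rescaled to each library's own total, ran from 0.365 for SYNE1 to 10.5 for fbxw11a. SLC49A4 averaged 6.68 RPKM, ACBD3 4.05, rims2b 2.55, RHBDF1 2.17, MYO18A 1.65 and RREB1 1.21. SYNE1, whose gene model is the longest of the 8, therefore had CPM close to those of RHBDF1 at a lower level per length.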

How the data were processed

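The authors deposited whole-number read counts per gene and RPKM values (reads per gene length and library size). The submitters' processing notes name bcl2fastq 1.8.4, STAR 2.4.1d and featureCounts 1.4.6-p4 and build GRCz10, and per the labels' protocols the library kit was TruSeq RNA v2, which does not mark strand, so antisense partners cannot be separated. The deposited RPKM had been divided by totals of other libraries: over 1399 genes with at least 1000 counts, the implied gene length varied across libraries by a median coefficient of variation of 0.14 with each library's own total and by at most 0.00013 with the 20 totals repeated down the table. They were therefore also rescaled, and used for levels per length and as alternatives.

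Counts were tested with edgeR 4.0.16 in R 4.3.3 (filterByExpr, TMM, 4 group means over 20 libraries, quasi-likelihood F-test, Benjamini-Hochberg adjustment over 18079 genes, calls at an adjusted p under 0.05). Each SE was derived from the fold change and F. The fit was also run on simulated data, and the outcome is not given here. Symbols matched 26269 of the identifiers (81.82%), and no sequence or coordinate was used. The 8 genes and the lists were chosen with earlier results of these data known. The names given are the 8 genes and their namesakes, from each list at most 3 called genes per contrast by smallest p (interaction, average age, exercise at 1 year), and the 8 genes of unique symbol and a mean of at least 5 CPM with the highest r. Alternatives were DESeq2 1.42.0 (its alpha set to 0.05 after counts at its default had been seen), limma 3.58.1 (voom, and trend on log2(RPKM + 0.1) or log2(RPKM + 1)), other scalings and filters, marker covariates, and libraries left out.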

Additional observations from a re-analysis of the deposited data

Results flagged for a closer look

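In RHBDF1 ENSDARG00000036541, exercised 3-year replicate 5 stood apart from its group at 15.6 CPM, with the next library at 10.5 CPM. In rims2b, exercised 1-year replicate 5 was at 32.6 CPM, with the next library at 14.3 CPM, and exercised 3-year replicate 2 was at 6.08 CPM, with the next at 2.61 CPM. The 2 exercised 3-year libraries are among those with intestinal reads, and exercised 1-year replicate 5 is not. In the order given, the gaps were 0.78, 0.724 and 0.9 of the range of their group. The limit used for flagging is passed by chance in about 1 of 20 groups of 5, and 36 groups were looked at. That rate is for normally distributed values and for the limit, not for the gaps found. GOLPH3 ENSDARG00000052851 was singled out because its response to exercise differed between the ages, with an interaction of -0.79 on the log2 scale.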

How the results depend on the processing

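The sign of the exercise effect differed between the ages in all 32 alternatives for RHBDF1, RREB1, ACBD3, SYNE1, fbxw11a, SLC49A4 and rims2b, and in 31 for MYO18A, whose effect at 3 years was -0.0582 without the libraries with intestinal reads. That alternative leaves 2 libraries in the exercised 3-year group. The alternatives reuse all or part of the libraries in which these genes were chosen for their opposite exercise effects. The kept signs are therefore a description and not evidence for the pattern. The lowest count of any of the genes, 74, was in rims2b, and depth limits the namesakes of RHBDF1, SYNE1 and rims2b. The exercised means of RHBDF1 at 1 year, 3.22 CPM, and of rims2b at 3 years, 3.11 CPM, were at the level of syne1b, 2.48 to 3.78 CPM. No paired analysis was possible because the replicate numbers follow accession order and pair nothing.

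The 177 genes called for the interaction became 687 with DESeq2, 69 without scaling beyond the total, 100 without a filter on low counts and 20 without the libraries with intestinal reads (10 shared). With limma-trend they were 26 and 36 on deposited RPKM (pseudocount 0.1 and 1) and 56 and 56 on rescaled RPKM. The 515 genes for exercise at 1 year became 1198 with DESeq2, 195 without scaling, 185 without those libraries and 791 with marker covariates, and 114 and 157 on deposited and 234 and 255 on rescaled RPKM. The 0 genes for exercise at 3 years became 617 with DESeq2, 6 at 5 CPM in 5 libraries, 2 without those libraries, 2 on deposited RPKM and 3 and 9 on rescaled RPKM. The 2233 genes for average age became 3476 with DESeq2, 1398 without scaling, 1450 without those libraries, 1329 and 1272 on deposited RPKM and 1483 on rescaled RPKM at pseudocount 1. Without scaling the median interaction of all genes was 0.34, against 0.07 with TMM. With 1 library left out in turn, 58 (without exercised 1-year replicate 3) to 216 genes were called for the interaction, with 12 of 20 libraries moving the count by over 1.5 times, 240 to 614 for exercise at 1 year, 0 to 22 for exercise at 3 years and 1684 to 3175 for average age. The cause of these shifts was not tested.

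Among average age effects, without scaling ACBD3 was -0.56 (adjusted p = 0.0916), RHBDF1 0.58 (0.0705) and fbxw11a -0.61 (0.0905), in edgeR, none of them called. On deposited RPKM at pseudocounts 0.1 and 1, ACBD3 was -0.60 and -0.50, RHBDF1 0.45 and 0.28 and fbxw11a -0.64 and -0.59, and on rescaled RPKM ACBD3 was -0.52 and -0.43, RHBDF1 0.52 and 0.33 and fbxw11a -0.53 and -0.49, none called. Without the libraries with intestinal reads they were -0.65, 0.36 and -0.47, MYO18A was called at -0.69 and SYNE1 was -0.0838. DESeq2 called MYO18A at -0.43 (adjusted p = 0.0292). With 1 library left out, RHBDF1 ranged from 0.41 to 0.59 (call lost in 4 of 20), fbxw11a from -0.71 to -0.53 (5 of 20), MYO18A from -0.50 to -0.35 (called in 3 of 20) and SLC49A4 from -0.0125 to 0.0881, with -0.0043 and -0.0104 also below 0.

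Interactions were smaller in size on log2(RPKM + 1), a pseudocount of 1 without TMM factors, than in the main fit, and the cause was not tested. On deposited and rescaled RPKM at that pseudocount they were 1.75 and 1.77 for RHBDF1, 1.46 and 1.42 for MYO18A, 1.25 and 1.24 for RREB1, 0.52 and 0.50 for SYNE1, -1.80 and -1.83 for fbxw11a, -1.07 and -1.08 for SLC49A4 and -2.28 and -2.25 for rims2b, and 1.81 on deposited RPKM for ACBD3. SLC49A4 was -1.23 on deposited RPKM at pseudocount 0.1 and -1.21 without scaling, where SYNE1 was 2.00. Without the libraries with intestinal reads MYO18A was 1.73 and SYNE1 1.21.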
